A study of Mus musculus with 24 samples.

Results

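The comparison described here set DN cells against NKp46 cells, both sorted from the small intestine of mice lacking the nuclear receptors REV-ERBα and REV-ERBβ. It used 6 of the 24 bulk RNA-seq libraries of the study, 3 per population, chosen by their labels and not by any measured value. The mice, labelled DKO, were 8 to 12 weeks old and carried floxed Nr1d1 and Nr1d2 together with Cre recombinase under control of Vav1, a gene active throughout the blood lineages, so the deletion was not limited to innate lymphoid cells. Littermates that carried the floxed genes alone, labelled WT, gave 3 DN and 3 NKp46 libraries that serve for comparison. The cells came from the lamina propria, the connective tissue under the gut lining. The remaining libraries were of CCR6 and ILC1 cells from the same genotypes. What the abbreviation DN stands for and which surface markers defined each gate are not given in the labels, and since nothing in them ties a group's 3 libraries to 3 different mice, each p-value below reflects the spread between libraries and no more.

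Group 3 innate lymphoid cells (ILC3) are tissue lymphocytes without rearranged antigen receptors that make interleukins 17 and 22. A subset carries the natural killer (NK) receptor NKp46, encoded by Ncr1, and shares T-bet, NK receptors and chemokine receptors with ILC1 and NK cells. Another subset resembles lymphoid tissue inducer (LTi) cells and carries CCR6. REV-ERBα and REV-ERBβ are nuclear receptors that repress transcription and form part of the circadian clock.

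Libraries of DKO DN held 40714920 to 66678635 counts each and those of DKO NKp46 held 23676731 to 29172586, so DN was the deeper group throughout. Genes coding for protein took 93.6% to 94.6% of the counts in DN and 91.6% to 92.1% in NKp46, and ribosomal RNA genes took 1.81% to 3.11% and 3.57% to 4.80%. With all 6 libraries thinned to the total of the smallest, 152 genes were called in place of 154, and 144 were shared, while the part of the RNA composition in the results was not tested. Levels are given below in CPM, scaled counts per 1000000 counts of a library, calls are genes with an edgeR adjusted p under 0.05, and a positive log2 fold change means a higher level in DN.

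Nr1d1, which encodes REV-ERBα, was at 1485, 1772 and 1705 CPM in the DKO DN libraries and at 1002, 1162 and 1019 in DKO NKp46. The corresponding WT levels were 386, 399 and 489 CPM in DN and 623, 643 and 537 in NKp46. The targeted gene thus gave more counts in the libraries labelled DKO than in those labelled WT, in both populations. Nr1d2, which encodes REV-ERBβ, was at 121, 83.5 and 68.7 CPM in DKO DN and 110, 129 and 149 in DKO NKp46, against 22.0 to 44.4 and 62.0 to 67.1 in WT. Counts are per gene and the labels do not say which exons the deletion removes, so these levels do not check the genotype. Between DKO DN and DKO NKp46 neither gene was called, at a log2 fold change of 0.64 ± 0.20 (SE, adjusted p = 0.19) for Nr1d1 and -0.51 ± 0.36 (adjusted p = 0.61) for Nr1d2. Vav1 itself, a signalling protein of blood cells, was at 217 to 243 CPM in both groups.

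Ncr1, on chromosome 7 of GRCm38 (4337724 to 4345164, plus strand), checks the population labels. It stood at 43.0, 29.1 and 52.1 CPM in DKO DN and at 551, 397 and 445 in DKO NKp46. The groups were far apart, with a log2 fold change of -3.49 ± 0.31 (adjusted p = 1.7e-06), and the WT groups differed by -3.89. The DKO DN libraries were low in Ncr1 but above the 2.55 to 2.63 CPM of the DKO CCR6 libraries. Ccr6, the chemokine receptor of LTi-like cells, was at 8.22, 12.8 and 10.6 CPM in DKO DN, against 702 to 882 in the DKO CCR6 libraries. In DKO NKp46 Ccr6 was at 5.43, 0.716 and 6.85 CPM, and the 2 populations were not called different (log2 fold change 1.28 ± 0.69, adjusted p = 0.49). In bulk RNA, fewer cells that express a gene and less RNA of it per cell cannot be told apart.

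Of 21286 genes tested, 154 (0.723%) were called by edgeR between DKO DN and DKO NKp46, 101 (0.474%) higher and 53 (0.249%) lower in DN. An unadjusted p under 0.05 was met by 2473 genes. The median log2 fold change over all genes was 0.02. The DKO NKp46 libraries correlated with each other at Spearman 0.933 to 0.937 and with the DKO DN libraries at 0.931 to 0.942. Among themselves the DKO DN libraries correlated at 0.959 to 0.961. For each of the 154 genes the 3 libraries of one population lay outside the range of the other, which held upward for 11.9% and downward for 8.97% of all genes tested. The calls came from these same libraries, so this separation adds no support to them. The number of calls fell with any 1 library of the comparison left out. It was 97, 117 and 123 without DKO NKp46 library 1, 2 or 3. Without DKO DN library 1, 2 or 3 it was 68, 91 and 75. It was 605 with DESeq2 and 314 when the 2 groups were fitted alone, of which 153 and 102 were shared with the 154, and 383 without WT ILC1 library 2, whose share of counts in genes coding for protein stood apart at 84.1%, of which 153 were shared.

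The DKO ILC1 and DKO CCR6 libraries are outside the comparison but were part of the fit that estimated each gene's spread. They are therefore not independent of the calls, and their levels are given as description. All 53 genes called lower in DN had every DKO ILC1 library above every DKO CCR6 library, which was so for 14.9% of all genes tested. Of the 101 genes called higher in DN, 63 had every ILC1 library below every CCR6 library (62.4%, against 16.5% of all genes), 17 had the opposite order and 21 overlapped. Each gene called lower in DN thus had a higher level in ILC1 than in CCR6 cells of the same genotype, while the genes called higher in DN were divided.

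Genes of type 1 and cytotoxic lymphocytes, NK receptors among them, were called in both directions. The list of type 1 and cytotoxic genes had 10 of 38 tested members lower and 3 higher, with a median log2 fold change of -0.31. The list of NKp46 ILC3 genes had 6 of 20 lower and 0 higher, with a median of -0.29. Over all genes tested 0.249% were called lower and 0.474% higher. Of the genes called, 5 stand on both lists (Ncr1, Klrb1c, Klrk1, Tbx21 and Cxcr3), so the counts overlap. Ncr1 encodes the receptor that names the NKp46 population, so its place in both counts adds no support. Limma voom called 2 members of the NKp46 list higher, and 3 were higher at an unadjusted p under 0.05. The lower count of the type 1 list fell to 5, 6, 5 and 5 without DKO NKp46 library 1 or 2 or DKO DN library 2 or 3, and that of the NKp46 list to 3 without DKO NKp46 library 1 or DKO DN library 2 or 3.

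Promoter sequence is shown for a pair of NK receptor genes lower in DN, Ncr1 and Klrk1, and a pair of genes higher in DN, Gzma and Tigit, because the stretch before each start holds the letters TGTGGTT of the RUNX element or their complement AACCACA. RUNX factors are regulators of both NK and T lymphocytes. The sequences are the 250 bases before the RefSeq start on GRCm38.p6, read in the direction of the gene: Ncr1 at chr7:4337465-4337714 (plus strand), Klrk1 at chr6:129623865-129624114 (minus), Gzma at chr13:113100982-113101231 (minus) and Tigit at chr16:43664185-43664434 (minus). None of these windows overlaps an annotated exon. Capitals mark the match, and in Ncr1 also TAGGTCA, the element bound by both ROR and REV-ERB nuclear receptors.
Ncr1: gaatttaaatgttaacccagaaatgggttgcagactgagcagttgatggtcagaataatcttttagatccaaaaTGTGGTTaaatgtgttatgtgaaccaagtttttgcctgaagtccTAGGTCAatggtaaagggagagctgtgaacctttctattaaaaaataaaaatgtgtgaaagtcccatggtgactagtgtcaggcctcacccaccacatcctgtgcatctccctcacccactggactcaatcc
Klrk1: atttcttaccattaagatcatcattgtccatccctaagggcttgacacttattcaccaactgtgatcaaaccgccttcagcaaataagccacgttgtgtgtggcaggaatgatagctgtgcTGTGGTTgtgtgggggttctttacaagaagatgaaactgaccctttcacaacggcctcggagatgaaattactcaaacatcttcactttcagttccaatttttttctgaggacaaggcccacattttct
Gzma: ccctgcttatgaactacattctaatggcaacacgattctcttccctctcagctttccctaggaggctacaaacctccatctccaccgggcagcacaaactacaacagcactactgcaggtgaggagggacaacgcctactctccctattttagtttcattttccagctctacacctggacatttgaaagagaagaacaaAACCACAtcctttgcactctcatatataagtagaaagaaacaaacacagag
Tigit: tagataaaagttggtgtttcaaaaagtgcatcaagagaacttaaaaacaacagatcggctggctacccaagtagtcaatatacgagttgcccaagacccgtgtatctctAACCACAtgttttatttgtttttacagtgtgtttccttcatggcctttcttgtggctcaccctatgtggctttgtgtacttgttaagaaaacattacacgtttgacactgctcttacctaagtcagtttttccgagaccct
The RUNX letters began 176 bases before the start in Ncr1, 129 in Klrk1, 51 in Gzma and 141 in Tigit, and TAGGTCA began 132 bases before it in Ncr1. Searched on both strands, the RUNX letters stood in 4 of 35 lower genes with a promoter entry (11.4%) and in 7 of 71 higher ones (9.86%). The share was 4.34% over 12079 tested genes with such an entry and 5.08% over the promoters of 27025 genes. TAGGTCA stood in 2 of 35 lower (5.71%) and 4 of 71 higher genes (5.63%), against 2.10% of tested and 2.55% of all genes. GGTGTGA, a core of the T-box element, stood in 4 of 35 lower (11.4%) and 1 of 71 higher (1.41%), against 3.61% and 3.84%. The motifs were picked with the calls known. They describe these windows and say nothing of binding.

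Klrb1c, which encodes the receptor NK1.1 used to mark mouse NK cells, was at 14.1, 13.8 and 14.1 CPM in DKO DN and 107, 101 and 85.0 in DKO NKp46. Located on chromosome 6 (128778485 to 128789215, minus strand), it had the smallest adjusted p of the comparison (log2 fold change -2.80 ± 0.18, adjusted p = 8.2e-09). Other receptor genes of the same cluster were lower too. Klrc2, a partner of CD94, was at 5.77, 4.46 and 2.97 CPM in DN and 27.5, 30.4 and 28.4 in NKp46 (-2.71 ± 0.38, adjusted p = 0.00032). Klri1 was at 2.60 to 3.61 CPM in DN and 15.5 to 19.6 in NKp46 (-2.45 ± 0.44, adjusted p = 0.0058). Klrb1a was at 1.48 to 2.20 CPM in DN and 4.59 to 7.74 in NKp46 (-1.82 ± 0.23, adjusted p = 0.00014). The groups did not overlap for any of these receptors, whose genes lie between 128609227 and 129717132 on chromosome 6 (GRCm38). The Klri1 call was lost without DKO DN library 2 (adjusted p = 0.0559), and the Klrb1a call with limma voom (0.0635) and with the 2 groups fitted alone (0.0529). Not every gene of the cluster was lower. Klra1, a receptor of the Ly49 family named here after its values were seen, was higher, at 0.809 to 1.01 CPM in DN against 0 counts in the 3 NKp46 libraries, which is at least 24.5-fold higher against a floor of 3 counts over the NKp46 group (adjusted p = 0.020). Its call was lost without any 1 library other than DKO DN library 2 (0.0513 to 0.0768) and with the 2 groups fitted alone (0.0524). Klri2 was at 60.7 to 97.6 CPM in DN and 172 to 241 in NKp46 and did not pass (-1.28 ± 0.32, adjusted p = 0.069). Genes of this cluster are close relatives of each other, and how reads shared between copies were counted is not given in the sources used here.

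Klrk1, in the same cluster, encodes NKG2D, a receptor for stress ligands. It was abundant in both populations, at 273, 269 and 253 CPM in DKO DN and 578, 550 and 570 in DKO NKp46, a log2 fold change of -1.09 ± 0.21 (adjusted p = 0.012). That call was lost without DKO NKp46 library 1 or 2 or any of the DKO DN libraries (adjusted p 0.0517 to 0.0993). Cd244a, which encodes the SLAM-family receptor 2B4, was at 39.1, 42.6 and 47.6 CPM against 93.9, 90.6 and 98.9 (-1.13 ± 0.18, adjusted p = 0.0020). Tyrobp, the signalling adaptor DAP12 of several NK receptors, was at 4.89, 1.89 and 3.58 CPM against 15.2, 14.9 and 5.08 (-1.76 ± 0.34, adjusted p = 0.013). DKO NKp46 library 3 lay close to the DN libraries for Tyrobp, and its call was lost without DKO NKp46 library 1 or 2 or DKO DN library 2 or 3 (adjusted p 0.0701 to 0.0973). The Tyrobp call was also lost with limma voom (0.0621) and with the 2 groups fitted alone (0.128). Cd160, an inhibitory and costimulatory receptor, was at 394 to 420 CPM against 576 to 690 (-0.65 ± 0.15, adjusted p = 0.043), a call lost without any 1 of the 6 libraries (0.0683 to 0.236). Thinned counts (0.0711) and left-out IDs (0.0701) also ended the Cd160 call.

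**Figure D1:**
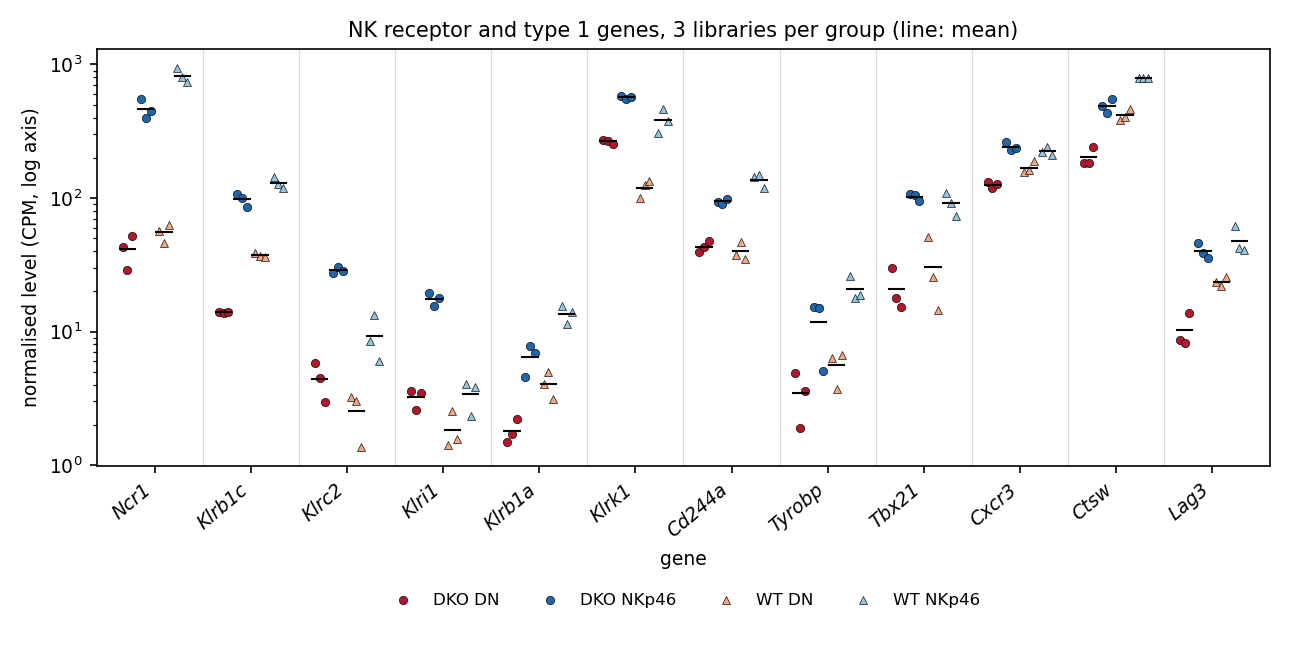
Normalised level (CPM, log axis) of 12 NK receptor and type 1 genes called lower in DKO DN, in each of 3 libraries of DKO DN, DKO NKp46, WT DN and WT NKp46, with a line at each mean. For all 12 genes the DKO DN libraries lie below the DKO NKp46 libraries, from 29.1 to 52.1 against 397 to 551 CPM for Ncr1 to 119 to 132 against 227 to 264 for Cxcr3.

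Tbx21, which encodes T-bet, the regulator of type 1 lymphocytes, was at 29.7, 17.7 and 15.3 CPM in DKO DN and 107, 105 and 94.2 in DKO NKp46. The groups were well separated, but the estimate was wide (log2 fold change -2.29 ± 0.54, adjusted p = 0.047), and the call was lost without any 1 of the 6 libraries (adjusted p 0.0850 to 0.228). The Tbx21 call was also lost with no filter on low counts (0.158) and with the replicate block (0.0945). Thinned counts (0.0521), left-out IDs (0.0510) and leaving out WT ILC1 library 2 (0.0509) ended it too. Cxcr3, a chemokine receptor of type 1 lymphocytes, was at 132, 119 and 128 CPM against 264, 227 and 236 (-0.94 ± 0.17, adjusted p = 0.0062), a call lost without DKO NKp46 library 1 or DKO DN library 2 or 3 (0.0557 to 0.0688). Ccr2, the receptor of monocyte chemoattractants, was at 76.2, 52.1 and 72.7 CPM against 117, 129 and 107 (-0.81 ± 0.18, adjusted p = 0.031), lost without any 1 library (0.0587 to 0.259). Cxcr3 and Ccr2 were the 2 members called among 22 tested chemokine and homing receptors, both lower, against 0.249% of all genes tested. Without any 1 of the 6 libraries at most 1 of the 2 was called lower. Ctsw, a protease of cytotoxic lymphocytes, was at 184, 183 and 239 CPM against 489, 436 and 550 (-1.28 ± 0.16, adjusted p = 0.00014). Lag3, an inhibitory receptor that binds MHC class II, was at 8.64, 8.24 and 13.9 CPM against 46.0, 39.0 and 35.7 (-1.97 ± 0.19, adjusted p = 3.2e-06). The calls of Ctsw and Lag3 held under each alternative tried.

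Several genes outside the NK receptor families were also lower in DN. Cpne7, a calcium-dependent membrane-binding protein, was at 2.67, 1.77 and 3.84 CPM in DKO DN and 33.3, 34.0 and 35.6 in DKO NKp46 (log2 fold change -3.63 ± 0.56, adjusted p = 0.0012). Slc6a20a, an amino acid transporter, was at 2.14, 3.34 and 2.0 CPM against 32.1, 19.7 and 34.2 (-3.53 ± 0.45, adjusted p = 0.00014). Pglyrp1, a secreted protein that binds bacterial peptidoglycan, was at 1.52 to 4.08 CPM against 11.9 to 19.5 (-2.56 ± 0.32, adjusted p = 0.00013). Cdk14, a cyclin-dependent kinase, was at 12.9 to 17.9 CPM against 60.5 to 73.9 (-2.12 ± 0.22, adjusted p = 9.1e-06), and Napsa, an aspartic protease, at 4.95 to 8.71 against 22.0 to 29.5 (-1.88 ± 0.24, adjusted p = 0.00014). Their calls held under each alternative tried. In the DKO ILC1 libraries the same genes were at 54.6 to 101 CPM for Cpne7, 56.9 to 71.4 for Slc6a20a, 81.0 to 115 for Pglyrp1, 76.5 to 89.8 for Cdk14 and 47.9 to 56.9 for Napsa, each range above that of DKO NKp46. Gda, a guanine deaminase, was at 3.56 to 5.20 CPM in DN and 14.6 to 29.6 in NKp46 (-2.36 ± 0.46, adjusted p = 0.012), a call lost without DKO NKp46 library 1 or DKO DN library 2 or 3 (0.0686 to 0.0890).

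Genes of the T cell receptor (TCR) complex were higher in DN. Of 27 T cell genes tested, 9 were called higher and 0 lower, against 0.474% and 0.249% of all genes tested. All DKO DN libraries lay above all DKO NKp46 libraries for 21 of the 27, against 11.9% of all genes. The median log2 fold change of the list was 1.73. Cd3e, a chain of the CD3 signalling complex, was at 194, 148 and 201 CPM in DKO DN and 32.9, 25.8 and 16.3 in DKO NKp46 (2.85 ± 0.33, adjusted p = 4.8e-05). Its neighbours Cd3d and Cd3g encode the other CD3 chains, and the 3 genes lie together on chromosome 9, between 44969572 and 45009627. Cd3d was at 58.8, 54.7 and 61.6 CPM against 8.22, 5.80 and 5.98 (3.13 ± 0.41, adjusted p = 0.00016), and Cd3g at 196, 142 and 188 against 30.3, 53.2 and 19.6 (2.35 ± 0.27, adjusted p = 4.8e-05). Cd247, the zeta chain, was at 18.5 to 28.3 CPM against 1.72 to 5.54 (2.58 ± 0.42, adjusted p = 0.0024). All 4 chains of the signalling complex were therefore higher in DN, and their calls held under each alternative tried.

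Among constant regions of the antigen receptors, those of the delta and alpha chains were higher. Trdc, of the TCR delta chain, was at 67.8, 71.2 and 89.0 CPM in DKO DN and 11.3, 20.4 and 12.1 in DKO NKp46 (log2 fold change 2.38 ± 0.26, adjusted p = 1.9e-05). Trac, of the alpha chain and named here after its values were seen, was at 93.8, 57.1 and 71.1 CPM against 31.7, 20.3 and 14.8 (1.73 ± 0.30, adjusted p = 0.0055). Trbc1, Trbc2, Trgc1 and Trgc2, of the beta and gamma chains and likewise named after their values were seen, did not pass, at log2 fold changes of 0.11, 0.46, 0.13 and 1.20. Counts of a constant region do not show whether the receptor gene was rearranged. Cd8b1, of the beta chain of the CD8 coreceptor of cytotoxic T cells, was at 51.6, 30.3 and 22.1 CPM against 1.94, 4.37 and 1.46 (3.74 ± 0.64, adjusted p = 0.0044). Cd8a, of the alpha chain, was at 40.5, 34.0 and 16.7 CPM against 2.26, 4.05 and 0.276 (3.79 ± 0.79, adjusted p = 0.022), and lost its call without DKO NKp46 library 1 or 3 or DKO DN library 1 or 2 (0.0609 to 0.0928). The Cd8a call was also lost with no filter on low counts (0.0737). Lat, the adaptor that links the TCR to downstream signals, was of another order, at 1579, 1941 and 1486 CPM against 396, 619 and 442 (1.78 ± 0.16, adjusted p = 2.3e-06). Lat was higher still in the DKO CCR6 libraries, at 2091 to 2203 CPM, where Cd3e was at 71.9 to 92.4.

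Summed over the 27 genes of the list, the level was 6202 to 6450 CPM in DKO DN and 3682 to 4347 in DKO NKp46, and none of the 27 was at 0 in all 6 libraries. The part of T cells in the sorted DN population in these differences was not tested. The number called higher was 17 with DESeq2, 14 with limma voom and with the 2 groups fitted alone, and 15 without WT ILC1 library 2. None was called lower by any of the 3 tools, and 1 was lower at an unadjusted p under 0.05.

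**Figure D2:**
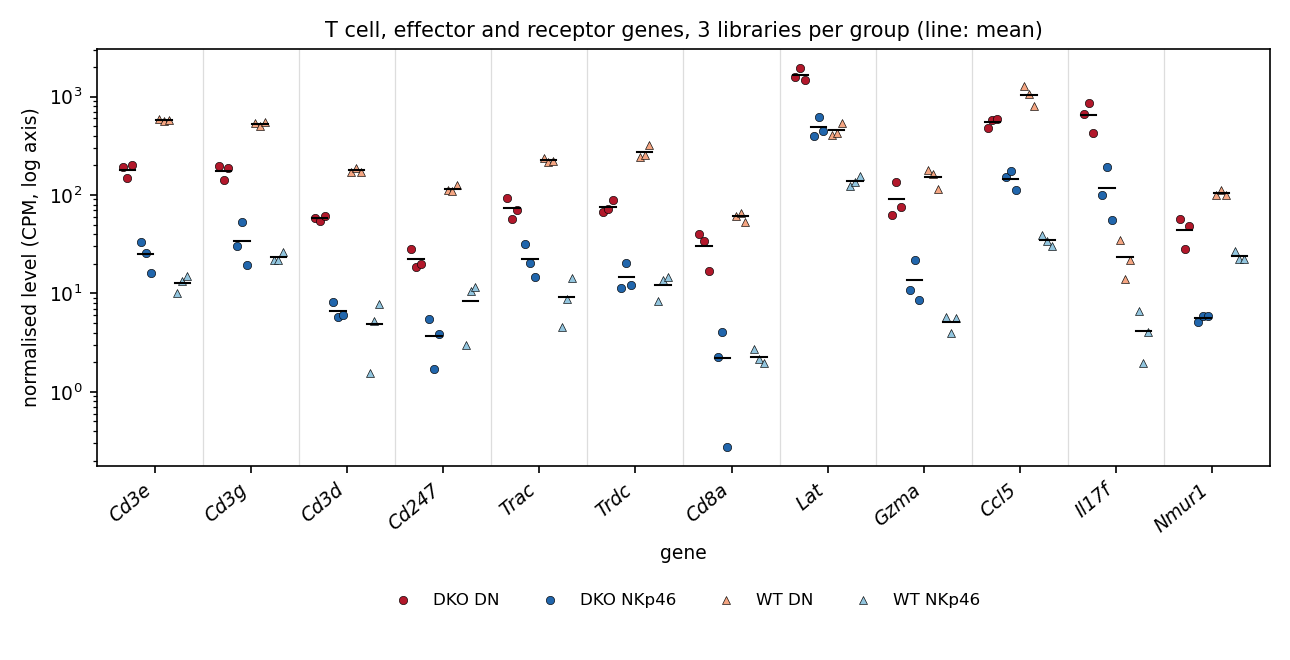
Normalised level (CPM, log axis) of 12 genes called higher in DKO DN, in each of 3 libraries of DKO DN, DKO NKp46, WT DN and WT NKp46, with a line at each mean. The DKO DN libraries lie above the DKO NKp46 libraries for each gene, and for Cd3e the WT DN libraries, at 558 to 591 CPM, lie above those of DKO DN, at 148 to 201.

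Products of effector lymphocytes were not all on the NKp46 side. Gzma, a granule protease, was higher in DN, at 62.4, 134 and 76.0 CPM in DKO DN and 10.8, 21.7 and 8.66 in DKO NKp46 (log2 fold change 2.73 ± 0.47, adjusted p = 0.0055). Ccl5, a chemokine that attracts T cells and monocytes, was at 480, 583 and 598 CPM against 154, 174 and 111 (1.92 ± 0.30, adjusted p = 0.0017). Klrg1, an inhibitory receptor of ILC2 and effector T cells, was at 44.3, 23.3 and 31.7 CPM against 9.56, 8.56 and 5.16 (2.09 ± 0.46, adjusted p = 0.028), and lost its call without any 1 library other than DKO DN library 2 (0.0686 to 0.157). These 3 are the members of the type 1 list that were higher. Tigit, a receptor that inhibits T and NK cells, was at 9.67, 7.19 and 10.2 CPM against 0.705, 0 and 1.26 (3.79 ± 0.79, adjusted p = 0.021). Its call was lost without DKO NKp46 library 1 or DKO DN library 1 or 3 (0.0586 to 0.0833). The Tigit call was also lost with no filter on low counts (0.0737) and with the 2 groups fitted alone (0.0895). Cd40lg, the ligand by which lymphocytes activate cells carrying CD40, was at 17.6 to 30.2 CPM against 2.83 to 5.82 (2.58 ± 0.56, adjusted p = 0.030), lost without any 1 library other than DKO DN library 2 (0.0557 to 0.129). With Tigit and Klrg1 it made 3 higher among 22 inhibitory and costimulatory receptors, against 0.474% of all genes tested. Lag3 and Cd160 of the same list were lower, against 0.249% of all genes tested. Without DKO DN library 1 or 3 the higher count was 0. Without DKO NKp46 library 2 or 3 it was 1, Tigit. Without DKO NKp46 library 1 the higher count was also 1, although Tigit, Klrg1 and Cd40lg each lost their calls there. The lower count was 1 without any 1 of the 6 libraries.

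Of 21 tested genes of group 2 innate lymphoid cells (ILC2), which make type 2 cytokines, 4 were called higher in DN and 0 lower. Over all genes tested 0.474% were called higher. The median log2 fold change of the list was 1.92. The 4 were Klrg1, Nmur1, Arg1 and Il13. Nmur1, the receptor for the neuropeptide neuromedin U, was at 57.0, 28.5 and 48.2 CPM in DKO DN and 5.15, 5.84 and 5.90 in DKO NKp46 (2.98 ± 0.56, adjusted p = 0.0095). Its call was lost without DKO NKp46 library 1 or DKO DN library 1 (0.0557 and 0.0513). Arg1, the enzyme arginase, was at 286, 258 and 323 CPM against 188, 157 and 169 (0.75 ± 0.15, adjusted p = 0.013), lost without DKO NKp46 library 2 or DKO DN library 1 or 3 (0.0561 to 0.0760). Il13, a type 2 cytokine, was at 0.969, 1.03 and 1.69 CPM in DN and had 0 counts in the 3 NKp46 libraries. Against a floor of 3 counts over the NKp46 group it was at least 35.5-fold higher in DN. Its call was lost without any 1 library (0.0559 to 0.0873) and with the replicate block (0.0851). The count of ILC2 genes was 1, 1 and 2 without DKO NKp46 library 1, 2 or 3, and 0 and 1 without DKO DN library 1 or 3. DESeq2 and limma voom called 6 and 9 higher, and none was lower by any tool or at an unadjusted p under 0.05. The summed level of the list was 1335 to 1798 CPM in DN and 969.6 to 1064 in NKp46, Il9 was at 0 in all 6 libraries, and the part of ILC2 in the DN population was not tested.

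Among genes of ILC3 identity, 2 of 26 were called, Il17f and Il17re, both higher in DN, with a median log2 fold change of 0.33. Over all genes tested 0.474% were called higher. Il17f, an interleukin 17 cytokine gene on chromosome 1 (20777146 to 20790617, minus strand), was at 661, 858 and 430 CPM in DKO DN and 101, 192 and 56.0 in DKO NKp46, and at 710 to 898 in DKO CCR6. The groups did not overlap (2.48 ± 0.54, adjusted p = 0.029), but the call was lost without DKO NKp46 library 1 or 3 or DKO DN library 1 or 2 (0.0869 to 0.151) and with DESeq2 (0.10). Il17re, a subunit of the receptor for interleukin 17C, was at 233 to 254 CPM against 141 to 176 (0.62 ± 0.13, adjusted p = 0.019), lost without the same libraries (0.0588 to 0.0853). Without any 1 of those 4 libraries the list therefore had 0 genes called, while DESeq2 and limma voom each called 4 higher and 1 lower, and 13 were higher and 1 lower at an unadjusted p under 0.05. Il17a, the sister gene of Il17f, was at 22.5, 26.1 and 20.1 CPM against 2.40, 5.66 and 2.44, and did not pass (2.71 ± 0.67, adjusted p = 0.071). Il23r, the receptor for the cytokine that sustains ILC3, was at 102, 108 and 87.1 CPM against 41.3, 71.2 and 58.1 (0.80 ± 0.19, adjusted p = 0.058). For both Il17a and Il23r each DN library lay above each NKp46 library.

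Of 19 tested genes of LTi-like ILC3, edgeR called 0 in either direction (0.723% over all genes tested), with a median log2 fold change of 0.58. At an unadjusted p under 0.05, 11 were higher and 1 lower, DESeq2 called 2 higher and 1 lower, and limma voom 5 higher and 1 lower. Tnfsf11, the cytokine RANKL of LTi cells, was at 23.2, 26.4 and 22.0 CPM in DN and 70.3, 57.6 and 46.8 in NKp46 (-1.29 ± 0.32, adjusted p = 0.073). Of 19 tested genes of gamma delta and interleukin 17 T cells, Il17f was higher and Ccr2 lower, and the list median was 0.53.

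Acat1, Slc41a3 and Slc6a13 were among the higher genes named for a small adjusted p. Acat1, the mitochondrial enzyme of ketone body and isoleucine breakdown, was at 1143, 1257 and 1142 CPM in DKO DN and 504, 596 and 438 in DKO NKp46 (log2 fold change 1.20 ± 0.11, adjusted p = 2.8e-06). Slc41a3, a magnesium transporter, was at 502, 463 and 398 CPM against 116, 145 and 83.1 (1.99 ± 0.21, adjusted p = 1.3e-05). Slc6a13, a transporter of GABA and taurine, was at 228, 199 and 194 CPM against 91.5, 98.3 and 94.6 (1.13 ± 0.13, adjusted p = 2.7e-05). In DKO CCR6 these 3 genes were at 1214 to 1371, 991 to 1482 and 406 to 532 CPM. Deptor, an inhibitor of mTOR kinase, was at 72.6, 58.9 and 83.6 CPM against 4.76, 11.7 and 16.8 (2.69 ± 0.43, adjusted p = 0.0021). H2-Oa, which tunes peptide loading of MHC class II, was at 9.79 to 15.4 CPM against 1.13 to 2.91 (2.58 ± 0.39, adjusted p = 0.00095). These 5 calls held under each alternative tried.

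A further group of higher genes lost their calls without most of the 6 libraries left out in turn. Krt80, a keratin, was at 8.13, 1.94 and 6.43 CPM in DN and 0.143 to 0.282 in NKp46 (log2 fold change 4.54 ± 1.00, adjusted p = 0.030), lost without any 1 library other than DKO DN library 2 (0.0793 to 0.138). Vipr2, a receptor for vasoactive intestinal peptide, was at 6.32, 7.04 and 8.46 CPM against 0, 0.716 and 0.866 (3.80 ± 0.80, adjusted p = 0.023), lost without any 1 library other than DKO NKp46 library 3 (0.0522 to 0.0848). Chst1, a sulfotransferase, was at 8.34 to 15.2 CPM against 0.0787 to 2.51 (3.13 ± 0.71, adjusted p = 0.037), lost without any 1 library other than DKO NKp46 library 2 (0.0550 to 0.121). Cnn3, an actin-binding calponin, was at 21.0 to 25.4 CPM against 2.60 to 5.12 (2.65 ± 0.61, adjusted p = 0.039), lost without any 1 library (0.0811 to 0.158).

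Few genes of broader programmes were called, and few of all genes tested were (154 of 21286, 0.723%). A count of 0 or 1 in lists of this size therefore does not set them apart. An unadjusted p under 0.05 was met by 2473 of the 21286. All DN libraries lay above those of NKp46 for 11.9% of the genes tested and below them for 8.97%. Of the 23 circadian clock genes tested, edgeR called 0, with a median log2 fold change of 0.05, while 3 were higher at an unadjusted p under 0.05, limma voom called 2 higher and DESeq2 called 0. Of 24 proliferation genes edgeR called 0, with a median of -0.47, 1 was lower at an unadjusted p under 0.05, DESeq2 called 1 lower and limma voom 0. For 12 of them all DN libraries lay below those of NKp46. Among them Rrm2, a ribonucleotide reductase subunit, was at 12.2, 9.17 and 10.2 CPM in DN and 43.7, 37.2 and 24.1 in NKp46 (-1.74 ± 0.53, adjusted p = 0.16). Of 25 ribosomal protein genes 0 were called by edgeR, DESeq2 or limma voom, with a median of 0.21 and 8 higher at an unadjusted p under 0.05, and for 15 all DN libraries lay above those of NKp46. Of 22 genes of oxidative phosphorylation these tools likewise called 0, with 4 higher at an unadjusted p under 0.05 and 10 without overlap, DN above. EdgeR called 0 of 26 genes of lipid metabolism (6 at an unadjusted p under 0.05, DESeq2 0, limma voom 1), 0 of 25 interferon-stimulated genes (3, 1 and 0) and 0 of 18 apoptosis regulators (1, 1 and 0). Glycolysis had 1 of 22 higher, Pfkp, a phosphofructokinase, at 892 to 1040 CPM against 593 to 674 (0.62 ± 0.14, adjusted p = 0.033), and 12 had all DN libraries above and 1 all below those of NKp46. Cholesterol synthesis had 1 of 20, Pmvk, phosphomevalonate kinase (1.62 ± 0.35, adjusted p = 0.030), immediate early genes 1 of 22, Fos (0.55 ± 0.12, adjusted p = 0.031), and NF-kB targets 1 of 20, Tnf, the inflammatory cytokine (0.81 ± 0.18, adjusted p = 0.026). Each of these 4 calls was lost without 4 or more of the 6 libraries left out in turn, with adjusted p up to 0.186 for Pfkp, 0.112 for Pmvk, 0.180 for Fos and 0.140 for Tnf.

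**Figure D3:**
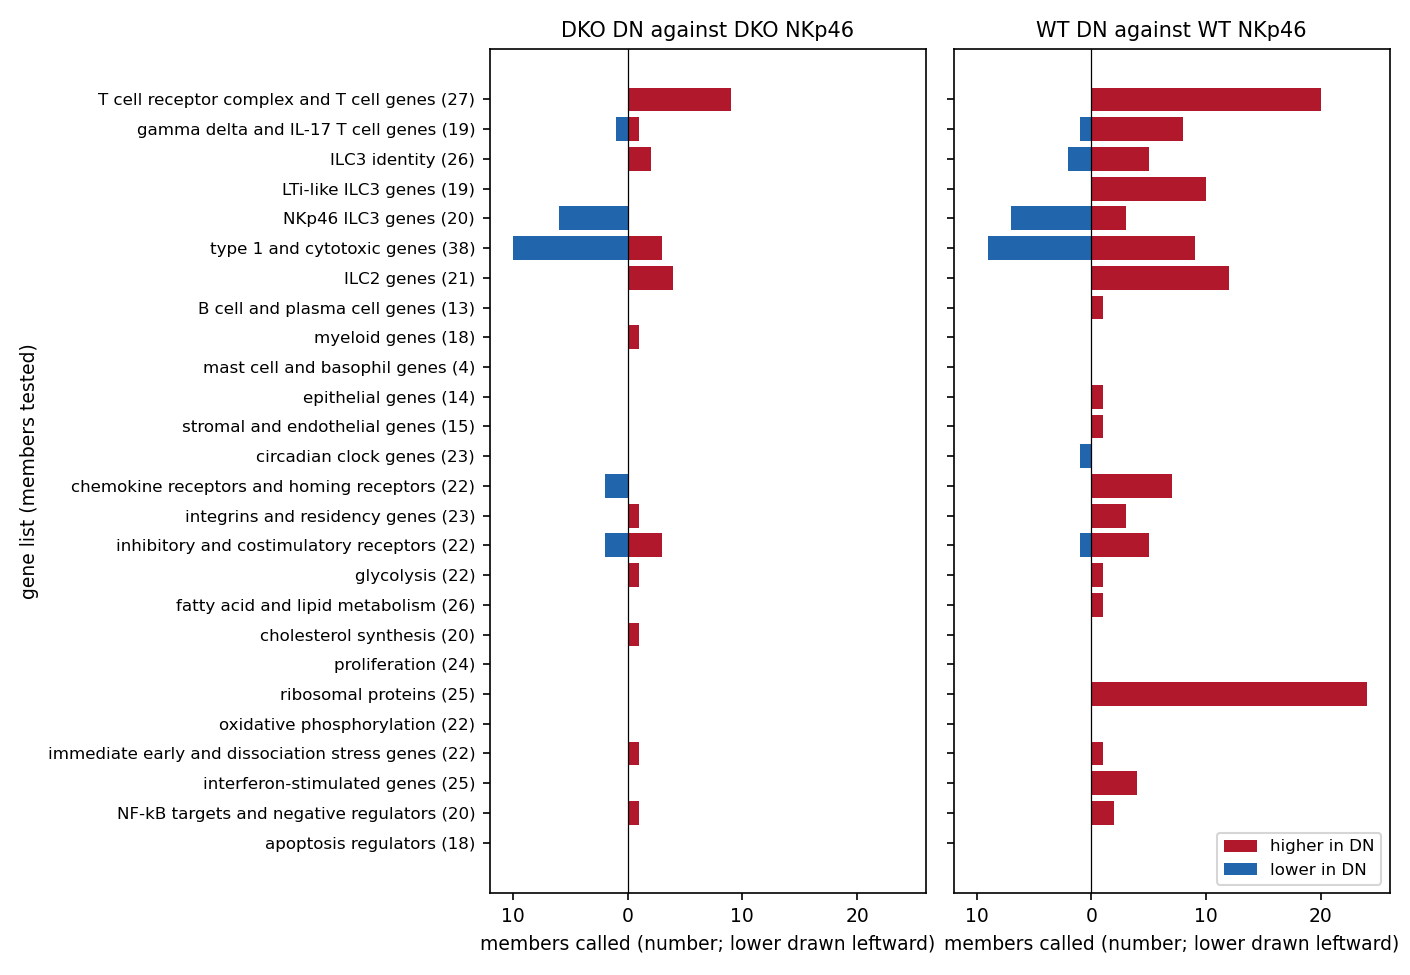
Number of members called higher (red) or lower (blue, drawn leftward) in DN against NKp46 for each of 26 gene lists, in DKO and in WT, with the number of members tested in brackets. In DKO the longest bars are the 10 type 1 genes lower and the 9 T cell genes higher in DN, and 24 of 25 ribosomal protein genes are called in WT against 0 in DKO.

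Markers of other cell types were examined in the same libraries. Over all genes tested 0.723% were called, so a count of 0 or 1 in lists this short does not set them apart. Of 13 B cell and plasma cell genes, 4 mast cell genes, 14 epithelial genes and 15 stromal genes tested, edgeR called 0. At an unadjusted p under 0.05 there were 2, 1, 2 and 2, DESeq2 called 1, 0, 1 and 0, and limma voom called 0. Of 18 myeloid genes 1 was called, Itgax, which encodes the integrin CD11c, also present on some lymphocytes. Itgax was at 1.39, 4.42 and 2.12 CPM in DKO DN against 1 count in each DKO NKp46 library, a ratio of 68.4 with a 95% interval of 23.2 to 333 that covers counting error only, and 27.7 to 45.2 CPM in DKO ILC1. Its call was lost without DKO NKp46 library 1 (0.0517) and with limma voom (0.0827). The summed level of the myeloid list was 286 to 314 CPM in DN and 261 to 331 in NKp46, that of the B cell list 596 to 1165 and 616 to 1585, that of the epithelial list 52.0 to 106 and 23.5 to 140, that of the mast cell list 9.59 to 11.6 and 6.56 to 11.9, and that of the stromal list 295 to 369 and 237 to 263. Mcpt2, Ms4a2 and Reg3g were at 0 in all 6 libraries. The part of these cell types in the results was not tested.

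The same contrast in WT mice, which shares no libraries with the DKO one, had 633 genes called (2.97%), 479 higher (2.25%) and 154 lower (0.723%) in DN. The total was 397, 338 and 375 without WT NKp46 library 1, 2 or 3, 409 and 360 without WT DN library 1 or 2, and 960 without WT ILC1 library 2. Of the 101 genes higher in DKO DN, 42 were also higher in WT DN, which is 41.6% of the DKO genes and 8.77% of the WT genes, 1 was called in the opposite direction and 58 were not called. Of the 53 lower genes, 26 were also lower in WT DN, 49.1% of the DKO and 16.9% of the WT genes, and 27 were not called. Ncr1, Klrb1c, Klrc2, Klrk1, Cd244a, Ctsw and Lag3 were called lower in both genotypes. In WT their log2 fold changes were -3.89, -1.80, -1.86, -1.67, -1.78, -0.93 and -1.02. Of 27 T cell genes, 20 were higher in WT DN, with a median of 3.67, against 9 and 1.73 in DKO, and 6 were called for the difference between the genotypes. In WT DN 12 of 21 ILC2 genes, 10 of 19 LTi-like genes and 24 of 25 ribosomal protein genes were higher, against 4, 0 and 0 in DKO, while the difference between the genotypes itself was called for 1, 0 and 0 of them.

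Whether the difference between DN and NKp46 itself differed by genotype was tested as an interaction. It was called for 106 genes (0.498%), 31 where the DKO difference lay above the WT difference (0.146%) and 75 where it lay below (0.352%), and 2142 genes had an unadjusted p under 0.05. Of the 75, 35 were processed pseudogenes (46.7%, against 16.7% of genes tested), and 13 of the 35 are named for ribosomal protein genes. Such copies may share reads with their parent genes, so these calls are uncertain. The count was 19 without DKO DN library 2, 27 without WT DN library 1 or 2, 29 without DKO DN library 1, 33 and 34 without WT NKp46 library 3 or 1, 38 without DKO DN library 3, 42 to 58 without WT NKp46 library 2 or any 1 of the DKO NKp46 libraries, and 89 without WT DN library 3. Of the 154 genes called in DKO, 24 were among the 106.

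Of the 27 T cell genes, 6 were called on the negative side, Cd3e, Cd3g, Trdc, Trac, Cd2 and Cd27. Cd3e was at 591, 558 and 574 CPM in WT DN and 10.2, 13.3 and 15.1 in WT NKp46, a log2 fold change of 5.48 against 2.85 in DKO, and the interaction was -2.62 ± 0.45 (adjusted p = 0.0091). Cd3g (interaction -2.16 ± 0.37, adjusted p = 0.0094), Trdc (-2.11 ± 0.35, adjusted p = 0.0075) and Trac (-2.88 ± 0.43, adjusted p = 0.0046) had the same sign. For Trac the DKO libraries lay between the WT groups: it was at 216 to 237 CPM in WT DN against 57.1 to 93.8 in DKO DN, and at 4.59 to 14.2 in WT NKp46 against 14.8 to 31.7 in DKO NKp46. Cd2, an adhesion receptor of T and NK cells, had a log2 fold change of 4.95 in WT and 1.39 in DKO (interaction -3.55 ± 0.56, adjusted p = 0.0075). Cd27, a costimulatory receptor, was called as well (-3.28 ± 0.71, adjusted p = 0.043). The calls of Cd3e and Cd3g were lost without DKO DN library 2 (0.0565 for each), and that of Cd27 without 11 of the 12 libraries left out in turn (0.0619 to 0.144). The summed level of the T cell list was 6795 to 7194 CPM in WT DN and 3523 to 3547 in WT NKp46, and the part of T cells in these differences was not tested.

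Ccl5 had the same sign. It was at 1268, 1069 and 802 CPM in WT DN and 39.1, 34.0 and 30.4 in WT NKp46, a log2 fold change of 4.92 against 1.92 in DKO (interaction -3.00 ± 0.42, adjusted p = 0.0026). Nckap5 was at 6.36, 3.92 and 4.82 CPM in WT DN and at or under 0.294 in WT NKp46, while in DKO it was at 57.6 to 69.4 CPM in DN and 32.5 to 37.5 in NKp46 (interaction -4.74 ± 0.78, adjusted p = 0.0075). Its level was thus higher in both DKO populations than in either WT population, and the log2 difference between them was 0.84 in DKO and 5.59 in WT. Ighm, the heavy chain of IgM, was higher in DN in WT (185, 217 and 205 CPM against 63.9, 77.5 and 65.6) but at 158, 126 and 157 CPM against 257, 251 and 203 in DKO (interaction -2.24 ± 0.27, adjusted p = 0.0011). Ccr2 was called lower in DN in DKO alone, and its interaction was -1.32 ± 0.25 (adjusted p = 0.023), a call lost without 9 of the 12 libraries left out in turn (0.0515 to 0.120). In WT it was at 125 to 149 CPM in DN and 82.8 to 106 in NKp46.

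On the positive side, Acat1 was not called between the WT populations, at 202, 219 and 232 CPM in DN and 210, 215 and 219 in NKp46 (log2 fold change 0.02). In DKO, where both populations stood above these levels, the interaction was 1.18 ± 0.16 (adjusted p = 0.0015). Bicd1, a dynein adaptor, reversed: it was at 48.6 to 59.1 CPM in WT DN and 75.4 to 108 in WT NKp46, and at 88.5 to 103 in DKO DN and 34.8 to 49.4 in DKO NKp46. It was called lower in WT DN and higher in DKO DN (interaction 1.93 ± 0.25, adjusted p = 0.0015), the 1 gene called in opposite directions. Tnf was at 118 to 136 CPM in WT DN and 186 to 204 in WT NKp46, against 198 to 239 in DKO DN and 107 to 140 in DKO NKp46 (interaction 1.44 ± 0.25, adjusted p = 0.0091). Tacc2, a centrosome protein, was at 6.40 to 11.2 CPM against 16.7 to 20.5 in WT and 34.8 to 38.8 against 16.2 to 22.8 in DKO (2.10 ± 0.35, adjusted p = 0.0075). The interaction calls of Acat1, Bicd1, Tnf, Tacc2, Ccl5, Nckap5 and Ighm held under each alternative tried.

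**Figure D4:**
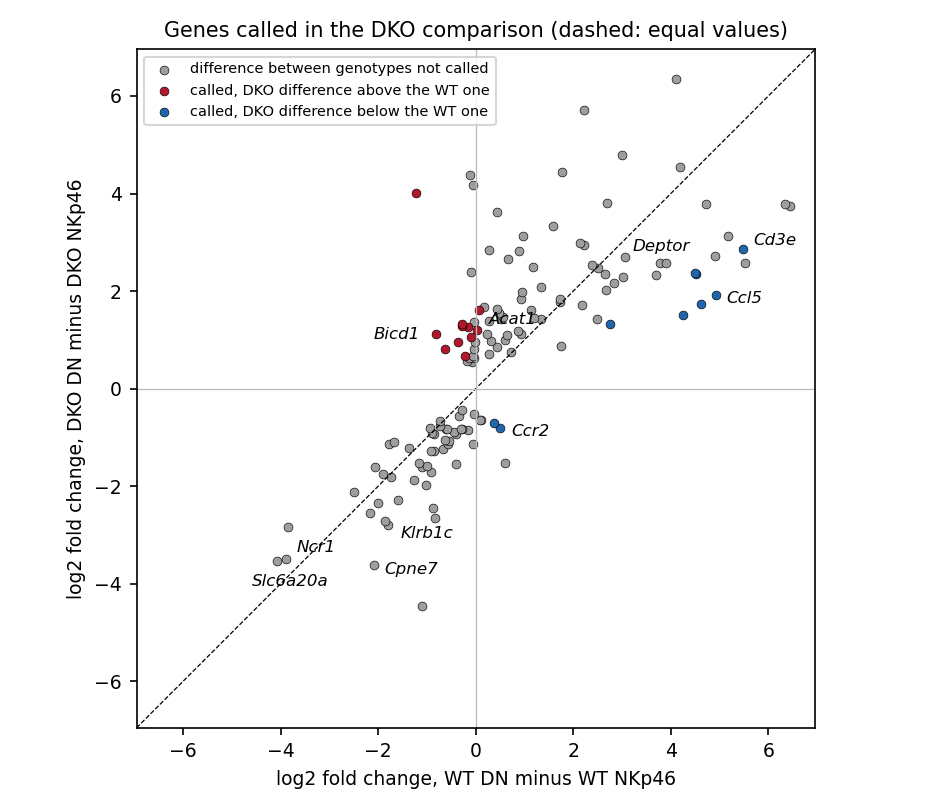
Log2 fold change of DN minus NKp46 in WT (horizontal) and in DKO (vertical) for 139 of the 154 genes called in DKO, leaving out 15 with 3 or fewer counts in any of the 4 groups. The dashed line marks equal values, 9 genes called for a DKO difference below the WT one (blue) include Cd3e and Ccl5, and 11 called for a difference above it (red) include Acat1 and Bicd1.

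Of the 20 genes of the NKp46 ILC3 list, 1 was called for the interaction. For Ncr1 the interaction was 0.41 ± 0.39 (adjusted p = 0.83), for Klrb1c -1.01 ± 0.24 (adjusted p = 0.061), for Klrk1 0.58 ± 0.30 (adjusted p = 0.54) and for Tbx21 -0.70 ± 0.73 (adjusted p = 0.84). Missing the threshold does not show that the genotypes were alike. The gene called was Klri2, a lectin-like receptor next to Klri1, at 2.85, 4.98 and 5.55 CPM in WT DN and 50.1, 64.5 and 31.5 in WT NKp46, against 97.6, 86.4 and 60.7 and 241, 179 and 172 in DKO. Its gap was narrower in DKO (log2 fold change -1.28 against -3.45 in WT, interaction 2.18 ± 0.46, adjusted p = 0.039), and the call was lost without 9 of the 12 libraries left out in turn (0.0506 to 0.135).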

How the data were processed

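Bulk RNA-seq of sorted cells gave 1 deposited table of raw read counts per gene for 24 libraries in 8 groups of 3. Per the labels' protocols, 10 ng of RNA with an integrity number over 8 was amplified with a low-input kit over 12 to 15 PCR cycles. The submitters' processing notes name mm10, STAR 2.7.9a, featureCounts 2.0.3 and Salmon 1.5.2. The annotation release, strand setting and treatment of reads shared between genes are not stated there or in the labels.

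The table had 55774 rows, and 168 gene IDs on 455 rows with identical counts were kept once, leaving 55487 genes. Positions came from GENCODE M21 for 55141 of them. EdgeR 4.0.16 (TMM, filterByExpr, robust quasi-likelihood test) modelled the 24 libraries together, each of the 8 groups having its own mean, with 16 residual degrees of freedom, and its p-values were adjusted by Benjamini-Hochberg over 21286 genes. Levels are TMM-scaled CPM, and SE is the log2 fold change divided by the square root of F. The same script was tested on simulated data. Alternatives were RLE size factors, DESeq2 1.42.0, limma voom 3.58.1, other filters, fewer libraries, a replicate block, thinned counts and left-out IDs.

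The members and gene lists were chosen with earlier results of these data known. Genes named are Nr1d1, Nr1d2, Vav1, Ncr1, Ccr6 and Cd4, the 14 each way with the largest change among called genes of at least 5 CPM with libraries that do not overlap, up to 6 per list by adjusted p, the 8 each way with the largest interaction and the 5 each way with the smallest adjusted p, without predicted genes, receptor segments and sex-linked genes. A result for a gene that this rule would name is not reported here. Library depth in the comparison was 23676731 to 66678635 counts. Between replicates the chi-square per degree of freedom was 37.8 to 79.5, so no library repeated another. Intervals cover counting error only, since the labels name no molecular identifiers.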

Additional observations from a re-analysis of the deposited data

Results flagged for a closer look

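The genes below were picked out because the difference between DN and NKp46 itself differed between DKO and WT by the edgeR interaction test. Values are the DKO log2 difference minus the WT one.

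Among T cell and related genes the interaction was -3.55 for Cd2, -3.28 for Cd27, -2.88 for Trac, -2.62 for Cd3e, -2.16 for Cd3g and -2.11 for Trdc. It was -3.00 for Ccl5, -1.32 for Ccr2, -2.24 for Ighm and -4.74 for Nckap5.

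Samd3 had -4.25 ± 0.73 (adjusted p = 0.0091), with 8.05 to 11.9 CPM in WT DN and 0.0306 to 0.616 in WT NKp46, against 2.61 to 5.24 and 1.18 to 3.22 in DKO. Zfp683, which encodes the residency factor Hobit, had -4.15 ± 0.88 (adjusted p = 0.043), with 3.35 to 8.92 CPM in WT DN and under 1 CPM in every other library of the 4 groups. Il4, a type 2 cytokine, had -3.72 ± 0.83 (adjusted p = 0.046), with 35.9, 55.0 and 45.5 CPM in WT DN, 0.979 to 1.72 in WT NKp46, 14.6 to 22.2 in DKO DN and 4.13 to 9.38 in DKO NKp46. Art2b, an ADP-ribosyltransferase, had -2.96 ± 0.59 (adjusted p = 0.028), with 3.07 to 8.57 CPM in WT NKp46 and 30.4 or more in each library of the other 3 groups.

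On the positive side the interaction was 1.18 for Acat1, 1.44 for Tnf, 1.93 for Bicd1, 2.10 for Tacc2 and 2.18 for Klri2. Anxa1, an anti-inflammatory phospholipid-binding protein, had 1.91 ± 0.35 (adjusted p = 0.014), with 32.2 to 45.3 CPM in WT DN and 86.9 to 107 in WT NKp46, against 52.5 to 78.6 and 32.7 to 63.1 in DKO. Coro2b had 1.64 ± 0.35 (adjusted p = 0.042), and Cd200r2, a CD200 receptor family member, 2.14 ± 0.47 (adjusted p = 0.044). Pros1 had 5.34 and Ociad2 8.61, both fitted on 3 or fewer counts in DKO NKp46, so these sizes depend on the prior count.

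Leaving out each of the 12 libraries in turn ended the call of Pros1, Cd200r2 and Il4 every time (adjusted p 0.0570 to 0.137, 0.0650 to 0.158 and 0.0506 to 0.163). It ended that of Ociad2, Coro2b and Zfp683 in 10 cases each (0.0541 to 0.116, 0.0570 to 0.131 and 0.0663 to 0.146), of Art2b in 9 (0.0529 to 0.121) and of Anxa1 in 5 (0.0524 to 0.0732). Samd3 kept its call in all 12 and lost it with limma voom (0.0513). Limma voom also ended the calls of Ociad2, Pros1, Zfp683, Cd27 and Klri2 (0.0527 to 0.267). No filter on low counts ended those of Il4, Cd27, Art2b and Klri2 (0.0553 to 0.101). Thinned counts ended those of Pros1 (0.0655) and Zfp683 (0.0623).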

How the results depend on the processing

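The genes called between DKO DN and DKO NKp46 numbered 605 with DESeq2 (416 higher, 189 lower), 282 with limma voom (210 higher), 244 with no filter on low counts (177 higher), 314 with the 2 groups fitted alone (178 higher, 136 lower) and 383 without WT ILC1 library 2 (279 higher, 104 lower). With single libraries of the comparison left out the total was 68 to 123, with 44 to 88 higher and 19 to 35 lower. RLE size factors, a filter at 1 CPM in 3 libraries, thinned counts and left-out IDs gave 152 to 175. Each setting had more genes higher than lower, 56.7% to 79.1% of calls. Among genes named above, no filter on low counts also ended the DKO calls of Vipr2, Chst1, Cnn3, Cd40lg, Il17f and Klrg1 (adjusted p 0.0800 to 0.138). The replicate block ended those of Krt80, Cnn3 and Cd40lg (0.0531 to 0.0594). Fitting the 2 groups alone ended those of Vipr2, Chst1 and Pmvk (0.0877 to 0.105). With the WT alternatives, which were added after seeing the data, WT calls numbered 1207 with DESeq2 (850 higher, 357 lower), 940 with limma voom (277 lower), 1070 with the 2 WT groups alone (365 lower), 960 without WT ILC1 library 2 (675 higher, 285 lower), and 338 to 548 without single WT libraries (275 to 445 higher, 59 to 103 lower). The interaction was called for 469 genes with DESeq2 (184 above, 285 below), 409 with the 4 groups alone (135 and 274) and 319 without WT ILC1 library 2 (126 and 193). It had 51 above with limma voom and 65 with no filter. Without single libraries it was called for 19 to 89 genes, 8 to 23 above and 11 to 68 below. The cause of these shifts was not tested.

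Pairing of the libraries by replicate number was weak at most and was left out of the main fit. Deviations of DN and NKp46 libraries with the same number correlated at 0.0458, 0.0403 and 0.0729 in DKO. In WT they correlated at 0.0774, 0.0354 and 0.0208. Each of these was under the 0.1 set as a minimum for pairing, although each library correlated best with its own number. With the replicate block 171 genes were called in DKO (115 higher, 56 lower, 135 shared), 691 in WT, and 172 for the interaction (48 above, 124 below). Among genes near no change, the sign reversed for Vav1 with the stricter filter (-0.0064) and across libraries left out (-0.021 to 0.10), and for Zfp683 in DKO across libraries left out (-0.16 to 0.76). Genes of few counts were limited by depth.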

Other observations

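Ramp1 and Ramp3, which encode partner proteins of the receptors for calcitonin gene-related peptide and adrenomedullin, were both higher in DKO DN and were picked after their values were seen. Ramp1 was at 257, 275 and 258 CPM in DKO DN and 62.6, 101 and 78.5 in DKO NKp46 (log2 fold change 1.70 ± 0.23, adjusted p = 0.00027). It was at 453 to 592 CPM in DKO CCR6 and 13.6 to 24.8 in DKO ILC1. Ramp3 was at 48.7, 59.2 and 53.8 CPM against 9.98, 11.8 and 6.93 (2.49 ± 0.37, adjusted p = 0.00094), and at 48.7 to 63.6 CPM in DKO CCR6 and 0.560 to 2.61 in DKO ILC1. For both genes every DN library lay above every NKp46 library, and the calls held without any 1 of the 6 libraries. In WT the log2 fold changes were 2.17 for Ramp1 and 1.18 for Ramp3.

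A few genes near the detection limit were called on small counts. Ociad2 was at 0.308, 1.52 and 0.935 CPM in DKO DN and had 0 counts in DKO NKp46, at least 24.6-fold higher when the NKp46 group as a whole is given 3 counts, and lay at 2.94 to 7.80 CPM in both WT populations. Its call was lost with the 2 groups fitted alone (adjusted p = 0.0770). Pros1, the anticoagulant protein S, had 169 counts in DKO DN and 3 in DKO NKp46, a ratio of 30.0 with a 95% interval of 10.1 to 147 that covers counting error only. Its call was lost without DKO NKp46 library 1 or 3 (adjusted p 0.0760 and 0.0677), with the 2 groups fitted alone (0.0739) and limma voom (0.20).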
